A study of Arabidopsis thaliana with 24 samples.

Results

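Removal of the 5′ cap commits a messenger RNA to decay, and the genes described here encode proteins of that step and of processing bodies, the cytoplasmic granules in which untranslated mRNAs gather with the decapping machinery. The rule listed 10 loci, DCP1, DCP2, VCS, VCR, XRN4, RH6, RH8, RH12, PAT1 and LSM1A, and kept those with a probe set that names only that gene. It left 4 genes of the 13350 that have such a probe set in the series: RH6 (AT2G45810), RH12 (AT3G61240), PAT1 (AT1G79090) and LSM1A (AT1G19120), with 1 probe set each. The other 6 gave no value: VCS and VCR share 1 probe set, and DCP1, DCP2, XRN4 and RH8 have no named probe set in the gene table used here.

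In plants, DCP2 cleaves the cap, DCP1 stimulates it, and VARICOSE (VCS) holds the complex together, after which the 5′-to-3′ exoribonuclease XRN4 degrades the uncapped RNA. LSM1A and its paralog LSM1B are alternative forms of the LSM1 subunit of the Lsm1-7 ring, and PAT1 is the ring's partner protein. The ring binds the 3′ end of mRNAs that have lost their poly(A) tail. RH6, RH8 and RH12 are DEAD-box RNA helicases related to yeast Dhh1 and animal DDX6, which repress translation and promote decapping. DCP5, a further processing body protein needed for translational repression and decapping, is the gene altered in the mutant of the study.

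The arrays (Affymetrix ATH1) measured total RNA and polysome-bound RNA of etiolated seedlings, grown in darkness to an age of 4 d, of which the aerial parts were used. Control seedlings of the accession Col-0 were set against dcp5-1, 1 mutant allele in the same accession. Both were kept dark or exposed to white light for 4 h. The 2 genotypes, 2 light conditions and 2 RNA fractions make 8 groups of 3 biological replicates, 24 arrays in all. The comparisons ask whether light, the mutation or both together change the transcripts of these genes, and whether the transcripts are carried on polysomes, ribosomes in translation, to the same extent as others.

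Levels are log2 signals, so a difference is the log2 of a ratio of signals. Medians of the total-RNA arrays lay between 7.33 and 7.44, and those of the polysomal arrays between 4.40 and 6.75. Each polysomal array was therefore centred on its median and set to 7.39, the mean of the total-RNA medians, and every polysomal level and change below is relative to the array's median. Absolute polysomal amounts were thus not compared, and on the deposited scale, which keeps each array's offset, the direction turns for some polysomal and loading values, as said beside those that passed. DCP5 itself has no named probe set and could not serve as a check of the genotype labels, and none of the 6 shoot markers has a probe set, so the tissue label was not checked by those. Of 6 root markers 2 have a probe set: PYK10, a root-rich glucosidase, was bright, with means of 14.2 to 14.8 in all 8 groups, and EXPA7, a root hair expansin, was dim. The light labels had a check: HYH, a light-induced bZIP transcription factor, was higher in light by 3.43, 3.22, 3.79 and 3.29 (log2, SE 0.28 each, n = 3 per group) in control total, dcp5-1 total, control polysomal and dcp5-1 polysomal RNA.

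All 4 genes were well expressed, with mean levels of 9.58 (RH6), 9.28 (RH12), 9.50 (PAT1) and 10.8 (LSM1A) over the 24 arrays, and all 4 passed the filter on dim probe sets, which stood at 4.86. Their 8 group means spanned 0.75 log2 units in RH6, 0.66 in LSM1A, 0.60 in RH12 and 0.31 in PAT1, with median SDs within groups of 0.11, 0.20, 0.32 and 0.13. The spread of RH6 lay between the RNA fractions and that of LSM1A between dark and light.

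**Figure D1:**
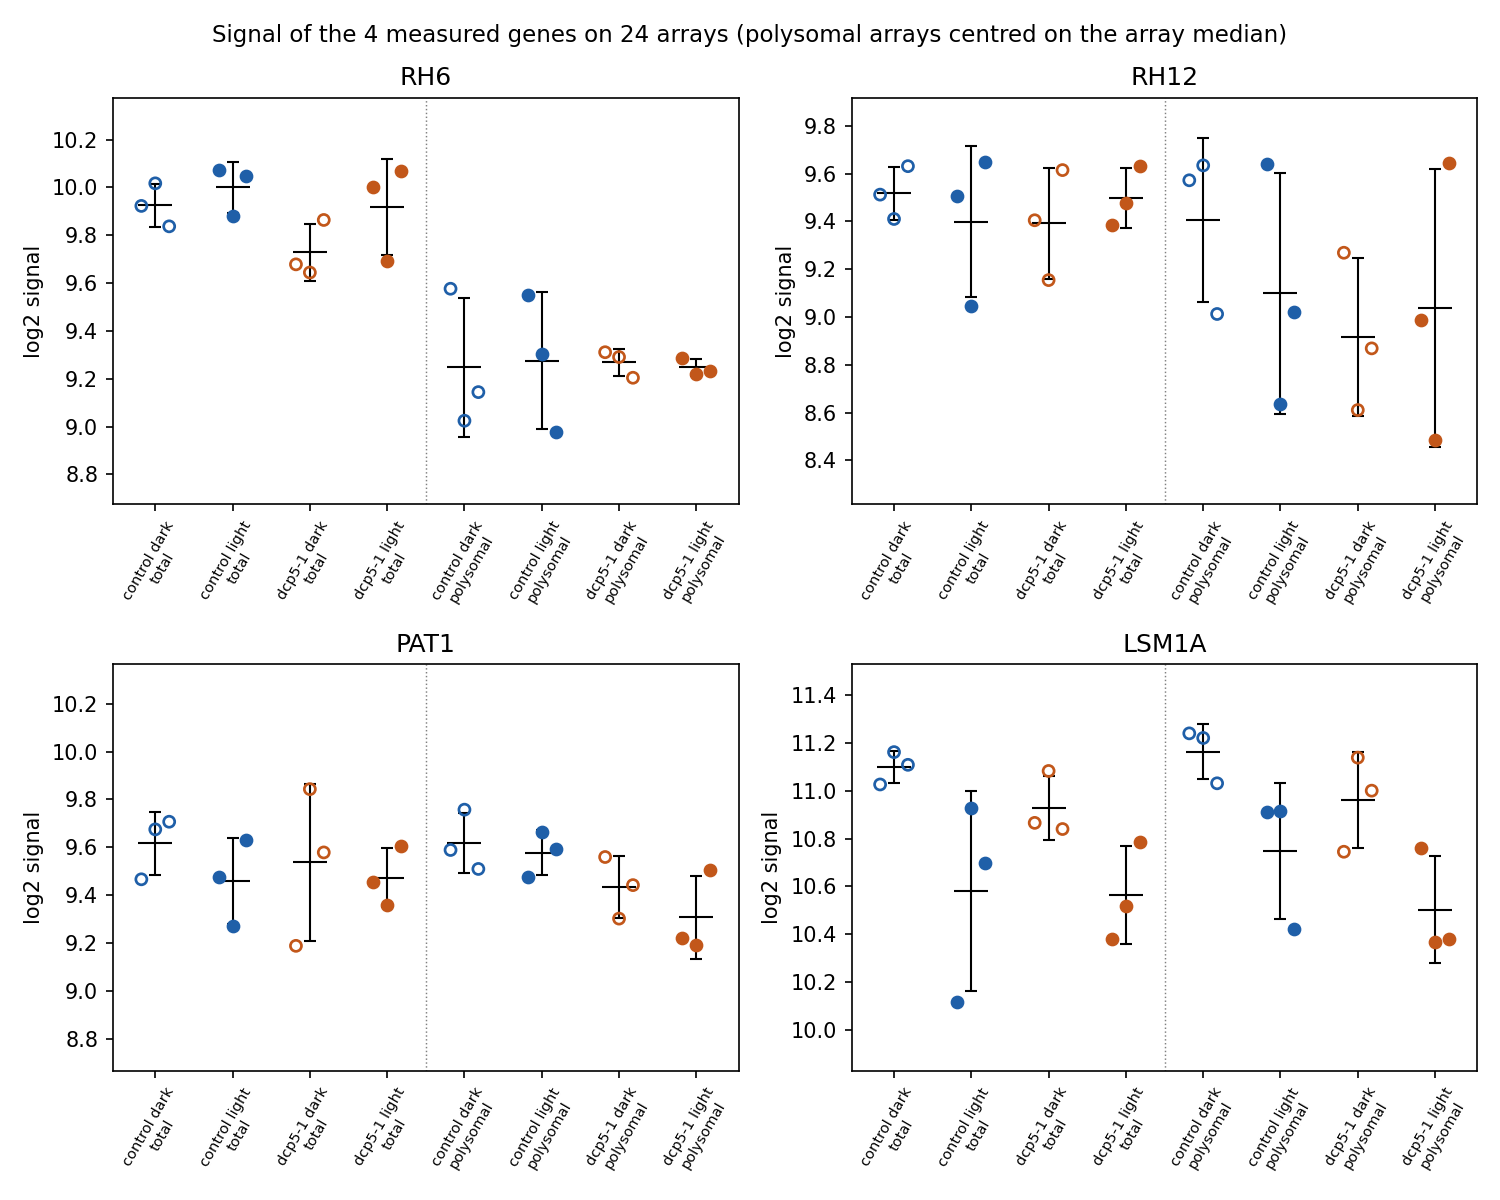
Levels of the 4 genes (log2 signal, polysomal arrays centred) on each of the 24 arrays by group; open points are dark, filled points light, blue control and orange dcp5-1, and bars are the mean ± SD of 3 arrays. RH6 is lower in the polysomal groups, LSM1A is lower in the light groups, and the compared groups of PAT1 and RH12 overlap.

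LSM1A was the 1 member of 4 that passed a single test for light, in control total RNA, where 29.5% of all probe sets passed. In total RNA of control seedlings its levels were 11.03, 11.16 and 11.11 in the dark and 10.12, 10.93 and 10.70 in light. In total RNA of dcp5-1 they were 10.87, 11.08 and 10.84 in the dark and 10.38, 10.52 and 10.79 in light. In both genotypes every dark array lay above every light array, with control light replicate 1 the lowest of all 24 arrays.

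In polysomal RNA of control seedlings LSM1A stood at 11.24, 11.22 and 11.03 in the dark and at 10.91, 10.91 and 10.42 in light. In polysomal RNA of dcp5-1 the values were 10.75, 11.14 and 11.0007 in the dark and 10.76, 10.37 and 10.38 in light. The control groups did not overlap, while in dcp5-1 light replicate 1 reached the lowest dark array. Ordered by group mean, the 4 dark groups (10.93 to 11.16) all stood above the 4 light groups (10.50 to 10.75), and within each of these sets of 4 neighbouring means differed by no more than the larger of their SDs.

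LSM1A fell by 0.52 ± 0.19 (log2, SE, n = 3 per group) in control total RNA, a 1.43-fold lower level (95% interval -0.91 to -0.12), and passed limma's test with a Benjamini-Hochberg adjusted p of 0.0435. Of all 17059 probe sets tested, 29.5% passed there and 15.1% were lower, and 20.6% fell further than LSM1A. The call is weak, since leaving out any of 5 of its 6 arrays ended it: control dark total replicates 1, 2 and 3 and control light total replicates 1 and 3. Without control light total replicate 1 the change was -0.29 and the adjusted p reached 0.31. It also ended with quantile normalisation (adjusted p = 0.052), without the variance trend (0.056) and with the 2 groups fitted alone (0.11). The arrays hold RNA of a mixture of cells, labelled as aerial parts, so fewer cells of a type that carries the transcript and less of it per cell cannot be told apart.

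The other 3 light comparisons of LSM1A had similar sizes and did not pass. The changes were -0.37 ± 0.19 in dcp5-1 total RNA (limma adjusted p = 0.19), -0.42 ± 0.19 in control polysomal RNA (adjusted p = 0.11) and -0.46 ± 0.19 in dcp5-1 polysomal RNA (adjusted p = 0.094). In these comparisons 21.8%, 29.2% and 21% of all probe sets passed. Groups without overlap, found for LSM1A in both total-RNA comparisons and in control polysomal RNA, occurred for 42.8%, 38.7% and 36.7% of probe sets, and for 35.6% in dcp5-1 polysomal RNA, where LSM1A overlapped.

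Averaging the light change over the 2 genotypes, a comparison added after the values were seen, has 6 arrays on each side. LSM1A then fell by 0.44 ± 0.13 in total RNA (95% interval -0.72 to -0.16, limma adjusted p = 0.011) and by 0.44 ± 0.13 in polysomal RNA (-0.72 to -0.16, adjusted p = 0.012). On the deposited scale the polysomal value turned to a higher level in light, at +0.39, and did not pass (adjusted p = 0.086). Leaving out single arrays gave -0.53 to -0.33 in total RNA and -0.50 to -0.36 in polysomal RNA, with adjusted p of at most 0.045. Of all probe sets, 39.6% and 39% passed these averaged tests, 21.1% and 21.3% as lower. Taken by replicate number, light was below dark in 11 of 12 pairs (-0.91 to 0.018), and 24.9% of probe sets were below 0 in at least 11. The 12 pairs hold total and polysomal RNA of the same replicate numbers. Residuals of these 2 fractions correlated, at pooled r of 0.29 to 0.51, so the pairs are not independent.

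LSM1B, the paralog that can take the place of LSM1A in the ring, is given because of that relation. Its light changes were -0.12 and -0.20 in total RNA of control and dcp5-1 and 0.038 and 0.10 in polysomal RNA (SE 0.30 each), and none passed the test. The SE exceeds that of LSM1A, and the difference between the paralogs was not tested.

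RH6, RH12 and PAT1 did not pass the test for light in any of the 4 comparisons, nor in the averages. The light changes of RH6 were 0.074, 0.19, 0.027 and -0.022 (SE 0.16) in control total, dcp5-1 total, control polysomal and dcp5-1 polysomal RNA. Those of PAT1 were -0.16, -0.064, -0.041 and -0.13 (SE 0.16), and those of RH12 were -0.12, 0.11, -0.31 and 0.12 (SE 0.27). Their 95% intervals reach no further than -0.50 to 0.53 for RH6 and PAT1 but extend from -0.86 to 0.68 for RH12. RH12 was the noisiest of the 4.

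**Figure D2:**
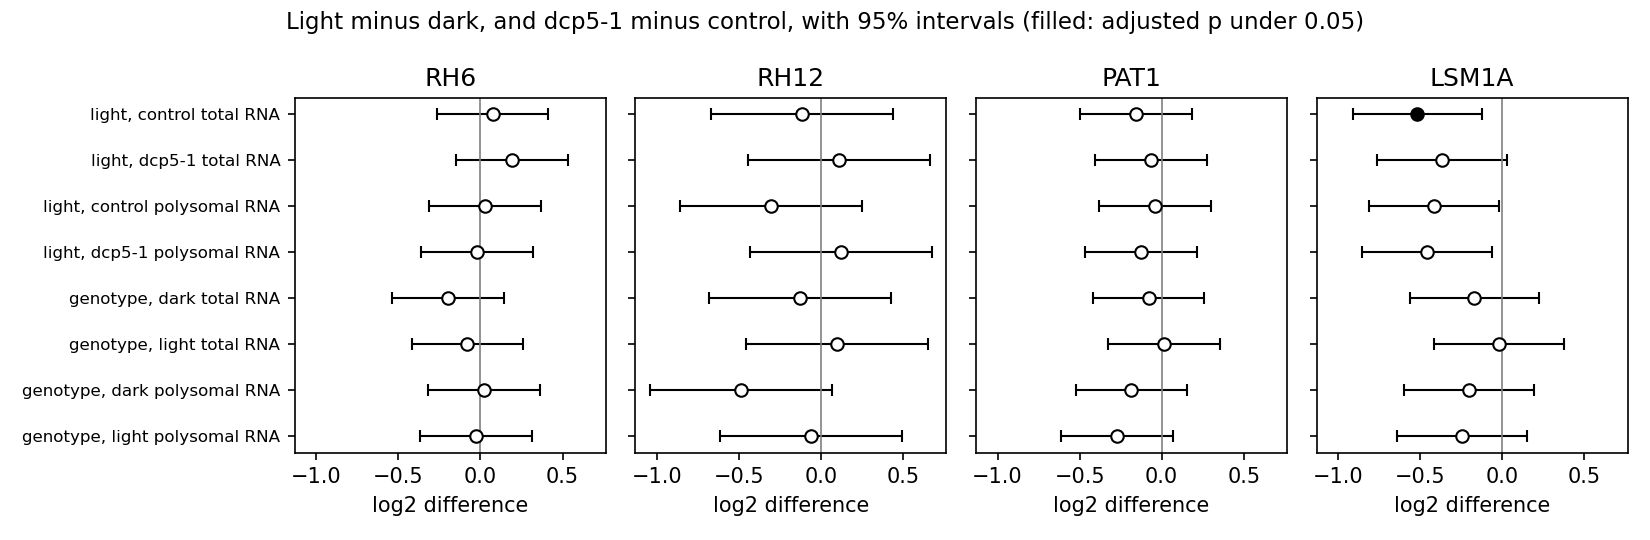
Log2 changes of the 4 genes with light and with dcp5-1, each with its 95% interval; filled points have an adjusted p under 0.05. The light change of LSM1A in control total RNA is the filled point among the single comparisons, and every interval for dcp5-1 against control includes 0.

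The mutation left the 4 transcripts without a detectable change. None of the 4 passed the test for dcp5-1 against control in dark total, light total, dark polysomal or light polysomal RNA, none had groups without overlap, and none had an unadjusted p under 0.05. Over all probe sets 2.34%, 3.51%, 3.28% and 4.33% passed, and 20.1%, 22.6%, 19.6% and 19.1% had groups without overlap. With replicate number as a block the probe sets that passed were 1127, 1509, 1624 and 1723, against 400, 598, 559 and 739 without it, and 0 members passed.

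RH12 in dark polysomal RNA had the difference of greatest size. Control arrays stood at 9.57, 9.63 and 9.01 and dcp5-1 arrays at 9.27, 8.61 and 8.87. Control replicate 3 lay inside the dcp5-1 range, and the difference of -0.49 ± 0.27 (95% interval -1.04 to 0.064) had a limma adjusted p of 0.38. In total RNA RH12 differed by -0.13 in the dark and 0.099 in light.

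PAT1 in light polysomal RNA came next. Control arrays read 9.48, 9.66 and 9.59 and dcp5-1 arrays 9.22, 9.19 and 9.51. The dcp5-1 replicate 3 reached the control range, and the difference was -0.27 ± 0.16 (95% interval -0.61 to 0.069, limma adjusted p = 0.43). In dark total RNA, dark polysomal RNA and light total RNA PAT1 differed by -0.079, -0.18 and 0.013.

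LSM1A differed between the genotypes by -0.17 and -0.019 in dark and light total RNA and by -0.20 and -0.25 in dark and light polysomal RNA (SE 0.19). RH6 differed by -0.20 and -0.080 in total RNA and by 0.020 and -0.028 in polysomal RNA (SE 0.16). By replicate number, dcp5-1 was below control in 10 of 12 pairs for LSM1A, PAT1 and RH12 and in 7 of 12 for RH6, and 18.4% of all probe sets were below 0 in at least 10. These 12 pairs also hold both fractions of the same replicate numbers and are not independent. Averaged over dark and light, which was added after the values were seen, no member passed either, and PAT1 in polysomal RNA was nearest at -0.23 ± 0.12 (limma adjusted p = 0.23). Of all probe sets, 9.07% passed that averaged test in total RNA and 11.5% in polysomal RNA. EXPA7, which was dim and left out of the tests, had group means of 2.31 to 3.67 in control and 4.52 to 5.77 in dcp5-1. Its SDs within groups ran from 0.15 to 1.72. The genotypes overlapped in dark and in light total RNA, but not in polysomal RNA. In light polysomal RNA the highest control array read 2.70 and the lowest dcp5-1 array 2.76. Of the tested probe sets 19.6% and 19.1% had no overlap in dark and in light polysomal RNA. The genotype difference of EXPA7 and its part in the other genotype differences were not tested.

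The light change did not differ detectably between the genotypes. In total RNA the difference between the light changes, dcp5-1 less control, was 0.22 for RH12, 0.15 for LSM1A, 0.12 for RH6 and 0.093 for PAT1. In polysomal RNA it was 0.43, -0.042, -0.049 and -0.087. No member passed, and only 0.0469% and 0.0528% of all probe sets did. The 95% intervals are wide, from -0.41 to 0.71 for LSM1A in total RNA and from -0.35 to 1.21 for RH12 in polysomal RNA.

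Polysome loading, the level in polysomal RNA minus that in total RNA with all arrays centred on their medians, was below 0 for RH6 in every replicate pair. The difference in loading between RH6 and the other members was not tested. Total-RNA levels printed here and for RH12 and PAT1 below are as deposited, before the centring used for loading. In total RNA RH6 read 9.92, 10.02 and 9.84 in control dark, 10.07, 9.88 and 10.05 in control light, 9.68, 9.64 and 9.86 in dcp5-1 dark, and 10.0001, 9.69 and 10.07 in dcp5-1 light. In polysomal RNA it read 9.58, 9.02 and 9.14, then 9.55, 9.30 and 8.98, then 9.31, 9.29 and 9.20, then 9.29, 9.22 and 9.23 in the same order. Every one of the 12 polysomal arrays lay below every one of the 12 total-RNA arrays. How many probe sets separate in this way was not counted, and 10% of all were below 0 in all 12 replicate pairs.

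The group means of RH6 ran from 9.73 to 9.9999 in total RNA and from 9.25 to 9.28 in polysomal RNA. Within a fraction neighbouring means differed by less than the larger SDs of the replicates (up to 0.20 in total RNA and 0.29 in polysomal RNA). The order of the groups inside a fraction is therefore not resolved.

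**Figure D3:**
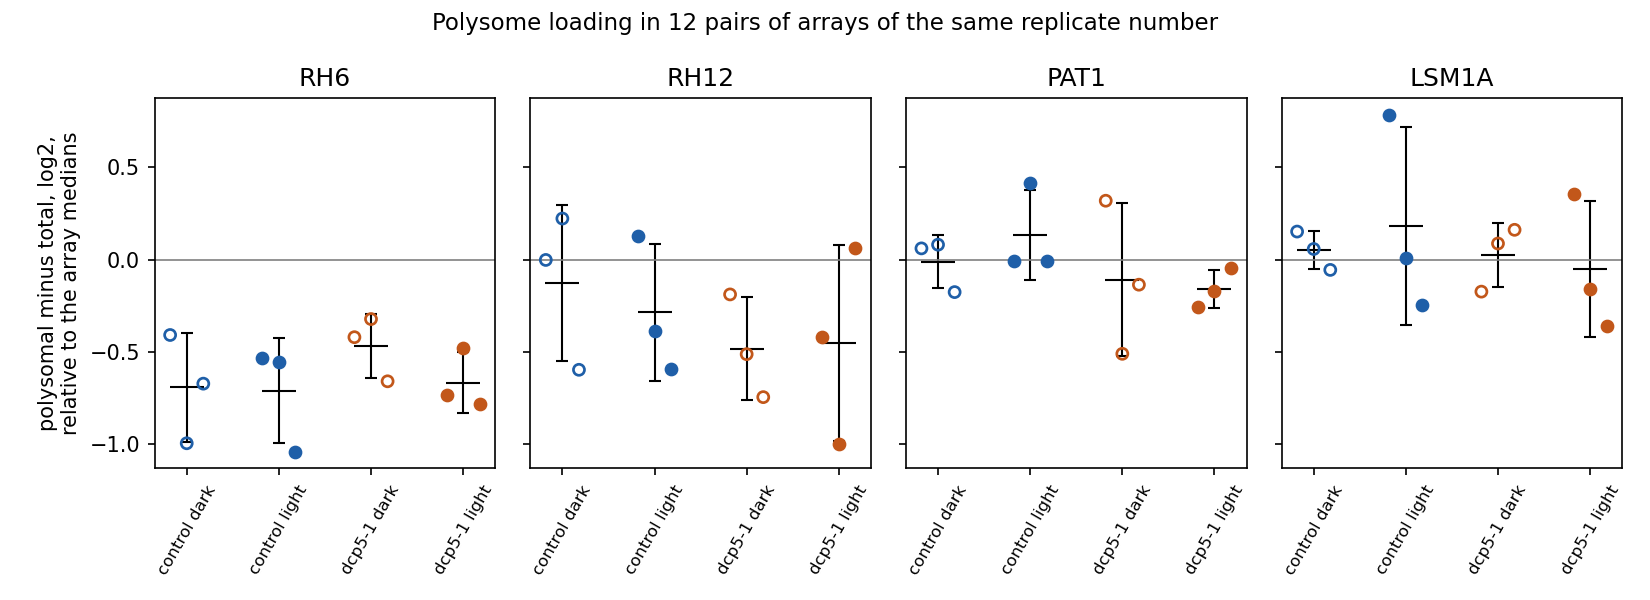
Polysomal minus total level (log2, all arrays centred on their medians) for each replicate pair of the 4 genes in the 4 groups; open points are dark, filled points light, blue control and orange dcp5-1, and bars are the mean ± SD of 3 pairs. All 12 points of RH6 lie below 0, from -1.04 to -0.32, while those of LSM1A and PAT1 lie on both sides.

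The loading of RH6 was -0.69 ± 0.16 in control dark (limma adjusted p = 0.0079), -0.71 ± 0.16 in control light (adjusted p = 0.0056) and -0.67 ± 0.16 in dcp5-1 light (adjusted p = 0.0097), with SE and 3 arrays a side. The transcript was thus 1.62-, 1.64- and 1.59-fold less abundant in polysomal than in total RNA, relative to the array medians. In dcp5-1 dark it was -0.47 ± 0.16 and did not pass (adjusted p = 0.061), but it passed with replicate number as a block (adjusted p = 0.021). Over all probe sets 12.4%, 14%, 13.7% and 12.7% passed in control dark, control light, dcp5-1 dark and dcp5-1 light, and 4.93%, 5.09%, 5.63% and 4.88% were lower. With the block the counts over all probe sets rose to 3778, 4140, 4057 and 4026 from 2108, 2388, 2332 and 2166.

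Single arrays decided some of these calls, and with the 2 compared groups fitted alone those in control dark and control light ended (adjusted p = 0.064 and 0.075). Without control dark polysomal replicate 2, RH6 in control dark was at -0.58 (adjusted p = 0.053), and without control light polysomal replicate 3 it was at -0.56 in control light (adjusted p = 0.052). The groups did not overlap in any of the 4 comparisons, as was the case for 29.7%, 27.2%, 32% and 34.1% of probe sets.

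Averaged over the 4 groups, a comparison added after the values were seen, the loading of RH6 was -0.63 ± 0.082 (95% interval -0.80 to -0.46, limma adjusted p = 1.8e-06, 12 arrays a side), a ratio of 0.644. It was lower in 12 of 12 replicate pairs, as were 10% of all probe sets, and 7.46% had a lower average. Of all probe sets 45.5% passed the averaged test and 19.6% were lower. Leaving out any 1 of the 24 arrays kept it between -0.67 and -0.60.

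RH12, the other helicase with a value, was also lower on average in polysomal RNA but far less evenly. Its total levels were 9.51, 9.41 and 9.63 in control dark, 9.51, 9.05 and 9.65 in control light, 9.40, 9.15 and 9.61 in dcp5-1 dark, and 9.38, 9.48 and 9.63 in dcp5-1 light. Polysomal levels were 9.57, 9.63 and 9.01, then 9.64, 8.64 and 9.02, then 9.27, 8.61 and 8.87, then 8.99, 8.48 and 9.64. The fractions overlapped in every group, and polysomal arrays spread from 8.48 to 9.64.

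The loading of RH12 was -0.13, -0.28, -0.48 and -0.45 in control dark, control light, dcp5-1 dark and dcp5-1 light (SE 0.27), and none passed. The average of -0.34 ± 0.13 passed (limma adjusted p = 0.0445), with 9 of 12 pairs below 0 (-0.9997 to 0.22). Of all probe sets 45.5% passed this averaged test, 18.8% had a lower average than RH12, and 22.8% were below 0 in at least 10 pairs. The averaged call of RH12 ended with no filter on dim probe sets (adjusted p = 0.055) and without the variance trend (0.057). It also ended on leaving out any of 16 of the 24 arrays, with the adjusted p at most 0.096, without dcp5-1 light polysomal replicate 2. RH6 and RH12 are close relatives, and whether their probes also bind each other's or RH8's transcript was not tested.

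For PAT1 and LSM1A no loading different from 0 was detected. Here 0 is set by the array medians, which include the dim probe sets, and the tested probe sets had a median average loading of 0.057. PAT1 read 9.47, 9.67 and 9.71 in control dark, 9.48, 9.27 and 9.63 in control light, 9.19, 9.84 and 9.58 in dcp5-1 dark, and 9.46, 9.36 and 9.60 in dcp5-1 light in total RNA. In polysomal RNA it read 9.59, 9.76 and 9.51 in control dark and 9.48, 9.66 and 9.59 in control light. Polysomal dcp5-1 arrays read 9.56, 9.30 and 9.44 in the dark and 9.22, 9.19 and 9.51 in light. The fractions overlapped in all 4 groups. The average loading was -0.037 ± 0.078 for PAT1 (95% interval -0.20 to 0.13) and 0.051 ± 0.092 for LSM1A (-0.14 to 0.24), and neither passed the test in any group.

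Neither light nor the mutation changed the loading of a member detectably. The loading of RH6 changed with light by -0.017 in control and -0.20 in dcp5-1, and it was higher in dcp5-1 than in control by 0.22 in the dark and 0.043 in light (SE 0.23 each). In limma's test no member passed in these 4 comparisons, none had an unadjusted p under 0.05, and 0% of all probe sets passed in any of them. The 95% interval for RH6 in the dark, -0.26 to 0.71, includes differences as large as the loading itself.

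Genes of neighbouring steps of mRNA decay, 85 loci in 7 lists, had 33 probe sets tested and were described in the same comparisons. With light 3 were higher and 2 lower in control total RNA (15.2% of 33, against 29.5% of all probe sets), and 1 and 2 in dcp5-1 total RNA (9.09%, against 21.8%). In polysomal RNA 4 were higher and 2 lower in control (18.2%, against 29.2%) and 3 and 2 in dcp5-1 (15.2%, against 21%). Averaged over the genotypes, 4 were higher and 6 lower in total RNA (30.3%, against 39.6%) and 5 and 5 in polysomal RNA (30.3%, against 39%). Their median change was -0.045 in control total RNA, against -0.039 for all probe sets tested. For dcp5-1 against control, 0 passed limma's test in any of the 4 comparisons. At an unadjusted p under 0.05 were 3, 1, 4 and 1, in dark total, light total, dark polysomal and light polysomal RNA. That count was not made over all probe sets. With replicate number as a block 0, 1, 2 and 1 of the 33 passed, against 1127, 1509, 1624 and 1723 of all 17059 probe sets. Averaged over dark and light, 0 passed in total RNA (against 9.07% of all probe sets), with 6 at an unadjusted p under 0.05. With the block 5 of the 33 passed there, against 2886 of all 17059. In polysomal RNA 1 passed (3.03%, against 11.5%), AT1G02080 of the deadenylation list, named after its value was seen. It was higher in dcp5-1 by 0.59 ± 0.14 (limma adjusted p = 0.0061). With the block 2 of the 33 passed in polysomal RNA, against 3463 of all 17059.

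The Lsm and Pat1 relatives, the ring partners of LSM1A and the paralogs of PAT1, had 6 of 14 loci tested and none passed in the single comparisons for light or genotype. AT4G14990, listed as a PAT1 relative, was at -0.47 ± 0.20 with light in control total RNA (limma adjusted p = 0.074) and at -0.39 ± 0.20 in dcp5-1 total RNA (0.18). Averaged over the genotypes it passed, falling by 0.43 ± 0.14 in total RNA (adjusted p = 0.016, at most 0.047 without single arrays), while its averaged change in polysomal RNA was -0.021 and did not pass. Among 9 of 14 deadenylation genes, AT5G18230 fell by 0.62 ± 0.20 in dcp5-1 polysomal RNA (adjusted p = 0.025) and AT1G15920 by 0.52 ± 0.19 in dcp5-1 total RNA (adjusted p = 0.0499). Both calls rest on single arrays: 3 and 6 of the 6 arrays involved ended them when left out, with adjusted p of up to 0.12 and 0.23.

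In the nonsense-mediated decay list (3 of 5 tested), AT1G28260 was lower in light in all 4 comparisons, by 1.02, 1.06, 0.96 and 0.69 in control total, dcp5-1 total, control polysomal and dcp5-1 polysomal RNA (SE 0.25; limma adjusted p = 0.0025, 0.0028, 0.0045 and 0.047). On the deposited scale the direction turned in control polysomal RNA, to +0.31, which did not pass (adjusted p = 0.29). The call in dcp5-1 polysomal RNA ended on leaving out 5 of 6 arrays, with an adjusted p of up to 0.30 without dcp5-1 dark polysomal replicate 1. Its total levels were 9.51, 9.26 and 8.73 in control dark and 8.07, 8.33 and 8.03 in control light, with no overlap.

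The exosome and Ski complex list, the 3′-to-5′ decay machinery, had 12 of 20 loci tested, of which 2, 1, 3 and 3 passed as higher and 0 as lower in the same order, while 14.4%, 11.1%, 13.6% and 10.4% of all probe sets passed as higher. AT5G38890 rose by 1.12 (adjusted p = 0.0016) in control total RNA and by 1.39 (1.9e-04) and 1.01 (0.0056) in control and dcp5-1 polysomal RNA, and was at 0.69 in dcp5-1 total RNA (0.057; SE 0.25 each). With replicate number as a block the last value passed as well (adjusted p = 0.029). AT2G25355 rose by 0.65, 0.77 and 0.88 in control total, control polysomal and dcp5-1 polysomal RNA (adjusted p = 0.018, 0.0055 and 0.0026), and the first of these ended without control dark total replicate 1 (0.069) or control light total replicate 1 (0.11). RRP41L, a relative of the exosome subunit RRP41, rose by 0.91 ± 0.30 in control polysomal RNA (adjusted p = 0.023), a call that 3 of 6 single arrays ended (up to 0.18).

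Of the stress granule and zinc finger list 2 of 17 loci were tested, of the initiation factors 1 of 12, and of the further exoribonucleases 0 of 3. AT3G14100 of the first list fell by 0.69 in control total RNA (limma adjusted p = 0.0084) and by 0.52 in control polysomal RNA (0.044), calls that 1 and 4 of 6 single arrays ended. On the deposited scale AT3G14100 was instead higher in light in control polysomal RNA, at +0.76 (adjusted p = 0.042). EIF4A-2, an RNA helicase of translation initiation, rose by 0.61 and 0.65 in control total and polysomal RNA (0.0195 and 0.014), calls that 3 and 2 of 6 single arrays ended. With replicate number as a block EIF4A-2 also passed in dcp5-1, at 0.47 in total RNA (adjusted p = 0.015) and 0.46 in polysomal RNA (0.017).

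**Figure D4:**
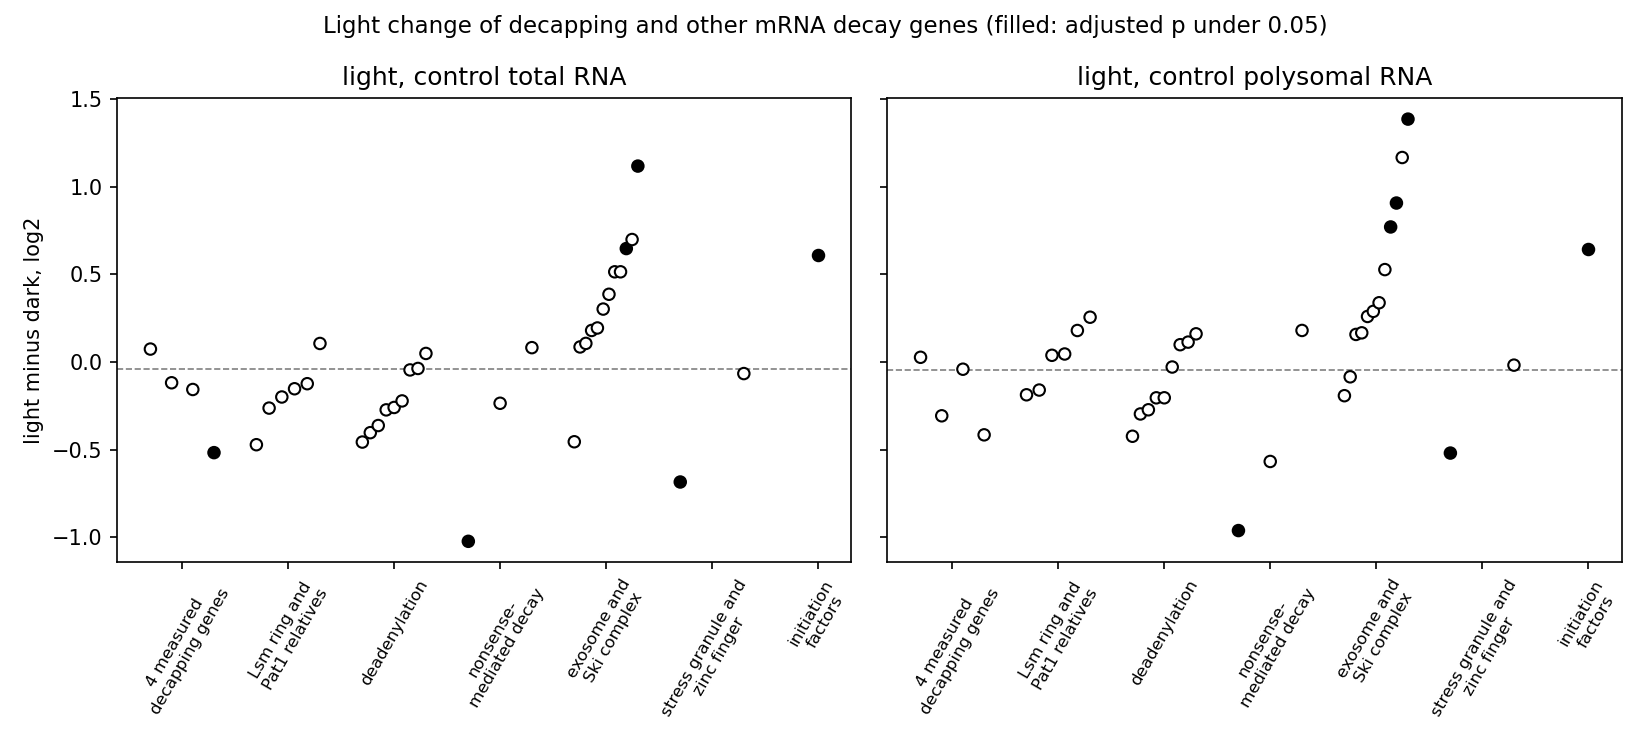
Light changes (log2) of the tested mRNA decay genes and the 4 members in total and polysomal RNA of control seedlings, by list. The dashed line is the median of all tested probe sets. The exosome and Ski genes that pass lie above the line, and AT1G28260 lies below it.

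Loading averaged over the 4 groups passed for 17 of the 33 decay probe sets (51.5%, against 45.5% of all), 11 higher and 6 lower. Within the Lsm and Pat1 list 5 of 6 passed, named here after their values were seen. LSM6A (0.70 ± 0.13, limma adjusted p = 1.4e-04), LSM3A (0.56 ± 0.10, 9.4e-05), LSM3B (0.37 ± 0.10, 0.0047) and LSM6B (0.28 ± 0.10, 0.028), small subunits of the Lsm rings, were higher in polysomal RNA relative to the array median, and lower, at -0.67, -0.81, -1.002 and -1.09, on the deposited scale. AT4G14990 was lower (-0.31 ± 0.098, 0.013). LSM6B lost its call without any of 7 of the 24 arrays, with the adjusted p at most 0.058. LSM1B, at -0.17 ± 0.15, did not pass, and LSM1A lay near 0 as given above.

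**Figure D5:**
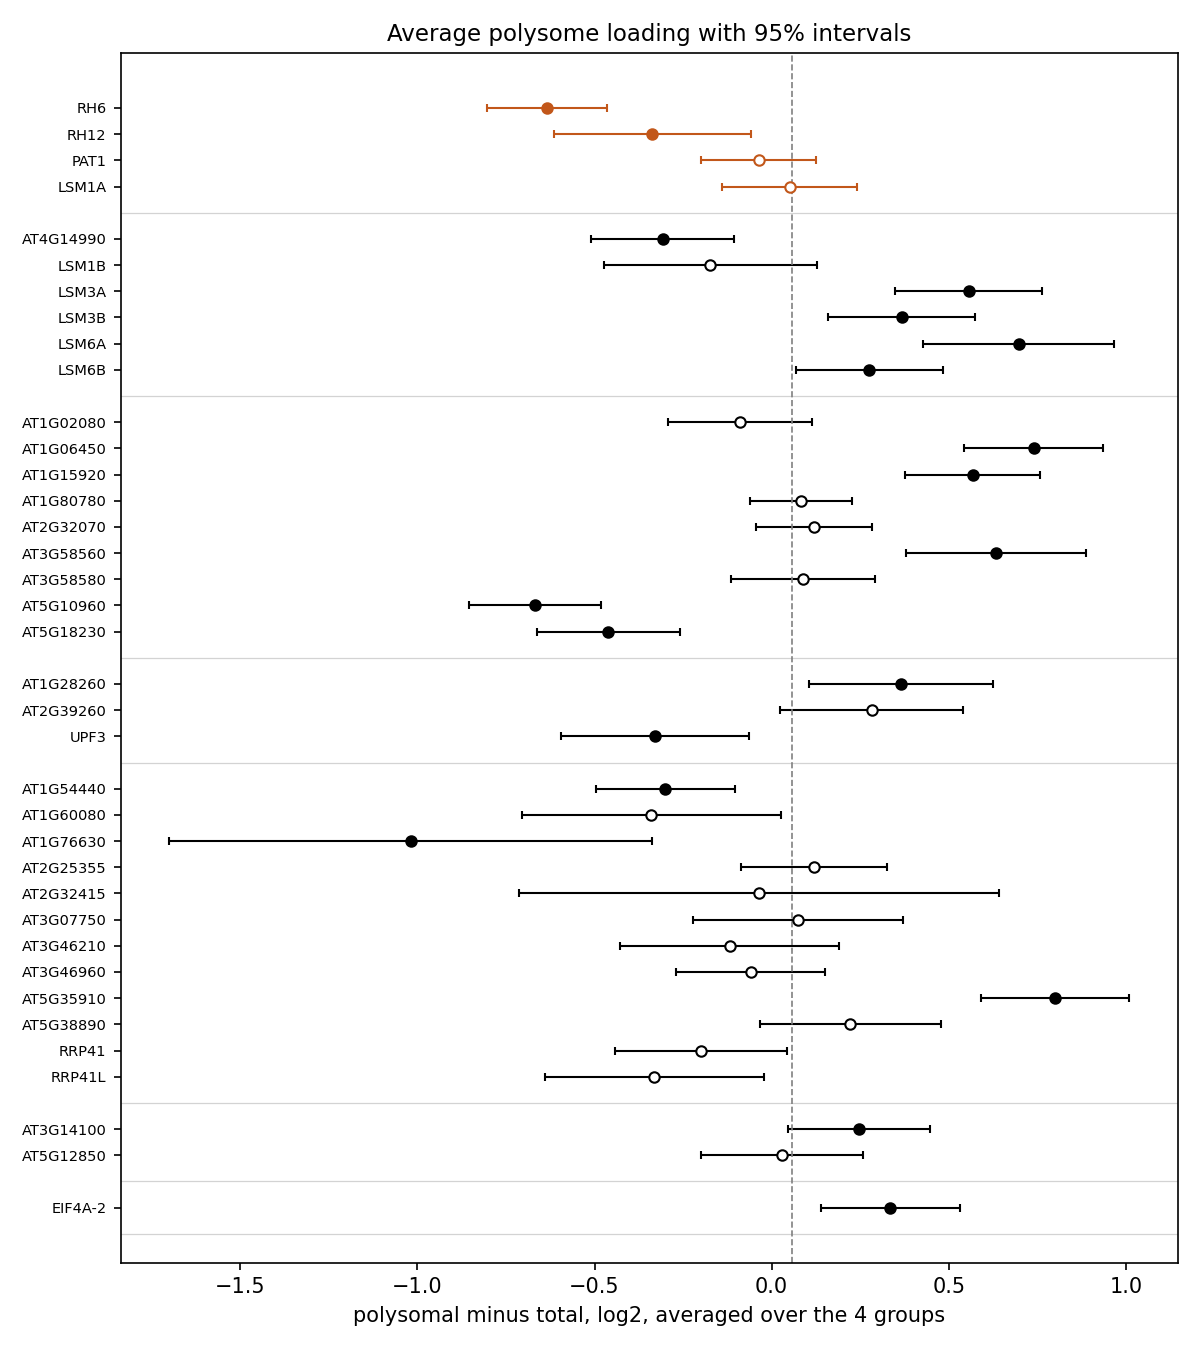
Polysomal minus total level averaged over the 4 groups (log2, 95% intervals) for the 4 members (orange) and the tested decay genes by list; filled points have an adjusted p under 0.05 and the dashed line is the median of all tested probe sets. RH6 is at -0.63, LSM1A and PAT1 lie near 0, and 4 Lsm subunits lie above the line; on the deposited scale these 4 are below 0.

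Over the 8 group means, with all arrays centred, the genes of 9512 other probe sets whose pattern was most like that of RH6 were AT4G23730 (Pearson r = 0.988), plastid-encoded psaA (0.988), AT5G55580, also called mTERF9 (0.987), AT3G56300 (0.984) and AT2G01220 (0.983). These values describe the 8 means, which share arrays and centring with RH6. The ranges of the 5 genes' means were 0.84 to 3.63 log2 units, against 0.74 for RH6.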

How the data were processed

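Values are log2 signals of 24 ATH1 arrays as the authors deposited them, and the submitters' processing notes name GCOS 1.4. On total-RNA arrays the trimmed mean signal was 500.0 (2% trimmed at each end), and on polysomal arrays 68.3 to 352, so polysomal arrays were centred as described above. For loading, all 24 arrays were centred. Depth does not apply to arrays, and the number of arrays limits the precision.

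Of 22810 probe sets, 64 controls and the dimmest 25% were left out, and 17059 were tested. Of the probe sets, 13513 have a single gene name in the table used, 503 have more than 1, and 8730 others have none. Names were updated through RefSeq's TAIR10.1 table. Group means were compared by limma (version 3.58.1, under R 4.3.3; trended variance prior, Benjamini-Hochberg threshold 0.05) in 18 planned comparisons and 5 averages added after values were seen. The fit was run on simulated data with noise independent between arrays, which could not address the replicate pairing described below.

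Members, lists and comparisons were chosen with earlier results of these data known. Every member was named, and in each list up to 3 genes that passed for light or genotype with the smallest adjusted p, or the 1 nearest to passing. The labels call replicates biological. Replicate numbers paired the samples: residuals of the same number correlated at 0.15 to 0.61 in 12 of 12 group pairs. Alternatives were other scalings, quantile normalisation, a replicate block, other dim filters, no variance trend, the compared groups alone, fraction pairs, and leaving out each array.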

Additional observations from a re-analysis of the deposited data

How the results depend on the processing

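Results were recomputed under 9 settings, of which fraction pairs (the polysomal minus total difference of each replicate number) was added after seeing the data, and without each of 24 arrays. The deposited values keep the array-wide shift of the polysomal arrays and moved polysomal and loading results most. With them 4 members were called for light in control polysomal RNA (0 as reported), 3 for genotype in dark polysomal RNA (0), 3 for averaged light in polysomal RNA (1), and 4 for loading in control dark (1), control light (1), dcp5-1 dark (0) and dcp5-1 light (1), for the light change of loading in control (0) and for averaged loading (2). Directions turned there in these values: light in control polysomal RNA for RH12 (0.97), LSM1A (0.86), PAT1 (1.24), AT5G18230 (0.85), AT1G15920 (1.07), AT1G28260 (0.31) and AT3G14100 (0.76), and averaged light in polysomal RNA for RH12 (0.74), LSM1A (0.39) and PAT1 (0.74). They also turned for genotype in dark polysomal RNA of LSM1A (0.69) and PAT1 (0.71), for the light change of loading in control of RH12 (1.09) and RH6 (1.23), and for loading of LSM1A in control dark (-2.17), control light (-0.79) and dcp5-1 dark (-1.30) and of PAT1 in control light (-0.84). Averaged loading turned for LSM1A (-1.32), LSM6A (-0.67), LSM3A (-0.81), LSM3B (-1.002) and LSM6B (-1.09).

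The light call in control total RNA was 0 members with quantile normalisation (LSM1A adjusted p = 0.052), no variance trend (0.056) and the compared groups alone (0.11), and 0 to 1 without single arrays. Loading in dcp5-1 dark called 1 member, RH6, with quantile normalisation, with the replicate block, with the lower 50% left out and with fraction pairs. Loading in control dark and in control light called 0 with the compared groups alone, and 0 to 1 without single arrays. Averaged loading called 1 with no filter on dim probe sets and with no variance trend, and 1 to 2 without single arrays. The cause was not tested. Averaged light in total RNA kept its 1 call, LSM1A, in every setting run.

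Pairing by the replicate block changed no other member call, but raised all calls for averaged genotype to 2886 from 1548 in total RNA and to 3463 from 1963 in polysomal RNA, and for light by genotype to 41 from 8 and to 50 from 9. The block gave 5 decay genes for light in dcp5-1 total RNA (3 without), while all calls there rose to 5046 from 3719. With the compared groups alone genotype calls over all probe sets fell to 212 from 400 in dark total, to 208 from 559 in dark polysomal and to 315 from 739 in light polysomal RNA, light by genotype to 5 and 5, and loading to 1078 from 2108 in control dark and to 965 from 2388 in control light. Fraction pairs gave 4701, 5097, 5065 and 4934 loading calls, and 14 and 7 for its light change. Deposited values gave 13310 light calls in control and 10143 and 176 genotype calls in dark and light polysomal RNA, 134 for light by genotype, 16785, 9353, 13743 and 9352 for loading, 11354 for its light change in control, 2 for its genotype change in the dark, and 11877, 4087 and 16565 for averaged light, genotype and loading. 

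With 3 arrays a group, member SEs were 0.16 to 0.27 for light, genotype and loading in the single comparisons. For light by genotype and for changes of loading they were 0.22 to 0.38. Where a comparison did not pass, changes of the sizes inside its interval are not excluded. Probe sets for 6 of the 10 genes and for DCP5 were not analysed here, and polysomal amounts are relative to the array median.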
